A study of Mus musculus with 27 samples.

Results

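The AP-1 genes and related basic leucine zipper (bZIP) genes of mouse macrophages were followed as a set of 10: Fos, Fosb, Fosl1, Fosl2, Jun, Junb, Jund, Atf3, Batf and Maff. They were taken by gene symbol from a table of 45070 genes. Of the 10, 9 passed the filter on low values, a value of at least 10 in at least 3 of the 27 samples, which 13901 genes passed in all. Fosl1 had no sample at 10 or above and was described without a test. Fosb reached 10 only in the 3 samples taken 0.5 h after LPS, so it had to differ at that time and its call there supports nothing.

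AP-1 is a dimeric transcription factor in which a Jun protein pairs with another Jun protein or with a Fos protein through the leucine zipper, while the adjoining basic region contacts DNA. Several of these genes are immediate early genes, meaning that their transcription starts within minutes of a signal and needs no new protein, and in macrophages they are best known downstream of MAP kinases activated by Toll-like receptors. ATF3, BATF and MAFF lack a transactivation domain of the Fos type, and ATF3 and MAFF are mostly known as repressors or as partners that set which DNA element a dimer binds.

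The cells were wild-type bone marrow-derived macrophages (BMDMs), grown in the study's methods from male C57/BL6 mice between the sixth and the eighth week of age. Untreated cells were compared with cells given lipopolysaccharide (LPS, a bacterial ligand of TLR4) at 10 ng/ml for 0.5, 1, 2 or 4 h, and with cells given interleukin-4 (IL-4) at 10 ng/ml for the same 4 times. All 9 groups, the untreated one included, first received the vehicle DMSO for 1 h, and each held 3 samples. The labels name no vehicle group kept for 0.5, 1, 2 or 4 h without a stimulus. In a difference from untreated cells, the stimulus and the time since DMSO therefore cannot be told apart. Comparisons of LPS with IL-4 are between groups of the same time. RNA that stays bound to chromatin, which is rich in transcripts still being made, was sequenced after SMART-seq2 amplification. Values are normalised read counts, that is, read counts per gene that the authors scaled on invariant genes and rounded. The labels do not say whether the 3 samples of a group came from separate cultures or animals, so the p-values measure only the spread between these samples, which may be technical.

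The normalised read counts summed to between 3571492 and 4058199 in LPS samples and between 2469768 and 2790981 in all others; the number of reads behind a value is not given by them. All 10 macrophage markers were detected above a value of 3 in at least 1 sample and together summed to 10064 to 19854 per sample. Lymphoid markers summed to 2 to 9 over 11 genes, with Cd3e, Cd3g and Il2rb at 0 in all 27 samples. Neutrophil and progenitor markers summed to 7 to 148 over 9 genes. Of these, Ly6g was at 0 throughout, but Ltf was at 1 to 60 and Ngp at 3 to 57. Fibroblast markers summed to 29 to 282 over 8 genes. Lum and Thy1 were at 0 throughout, but Col1a1 was at 8 to 95, Col1a2 at 16 to 128 and Pdgfrb at 0 to 104. Dendritic cell markers summed to 12 to 104 over 6 genes, and erythroid, megakaryocyte and mast cell markers to 7 to 46 over 10 genes. In untreated samples the fibroblast sum was 39 to 92 and in LPS 4 h samples 108 to 282, and the dendritic sum was 12 to 21 in untreated samples and 56 to 104 at LPS 1 h. The mean of Pdgfrb went from 1.67 to 87.7 at LPS 4 h, and that of Zbtb46, a dendritic marker, from 3.33 to 60.7 at LPS 1 h. Of 3 fibroblast markers tested, 1 was higher and 0 lower at LPS 4 h (25.9% and 37.6% of all genes tested). Of 4 dendritic markers tested, 2 were higher and 0 lower at LPS 1 h (24.8% and 39%). The neutrophil and progenitor sum was 7 to 18 in untreated samples and 37 to 92 at LPS 4 h, and the erythroid, megakaryocyte and mast cell sum 17 to 21 in untreated samples and 37 to 46 at LPS 0.5 h; their part in the results below was not tested. Replicates 2 and 3 of a group lay close together, with an SD of their log2 ratio of 0.14 to 0.29 over 620 well covered genes, while replicate 1 stood apart from either by an SD of 0.37 to 0.50. In bulk samples, fewer cells expressing a gene and less RNA per cell cannot be told apart.

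Sequence upstream of the start sites was read for the 9 genes with a RefSeq promoter window on GRCm38.p6 (250 bases before to 50 bases after a start; 11 windows, of which Maff had 3). Shown are 6 stretches that hold motif letters searched for. Capitals mark the match, and positions count from the start site of the window shown. The Maff stretch lies before a start site inside the Maff span, which begins at base 79346621. The cyclic AMP response element TGACGTCA, bound by ATF and Jun proteins, stands whole in Maff and as its TGACG core in Fos, Atf3 and Batf, Jun holds the variant TGACATCA, and the last holds a kB site, the element bound by NF-kB.
Fos, chr12:85473802-85473850, plus strand, from -88 to -40: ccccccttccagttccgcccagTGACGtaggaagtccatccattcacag
Jun, chr4:95052238-95052289, minus strand, from -67 to -16: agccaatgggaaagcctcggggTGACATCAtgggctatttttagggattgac
Atf3, chr1:191183334-191183362, minus strand, from -29 to -1, core on the opposite strand: ctggaagctattaatagcattaCGTCAgc
Batf, chr12:85686600-85686648, plus strand, from -120 to -72: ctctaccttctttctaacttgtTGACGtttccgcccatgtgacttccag
Maff, chr15:79347469-79347519, plus strand, from -51 to -1: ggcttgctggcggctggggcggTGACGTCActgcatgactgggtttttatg
Fosl2, chr5:32136270-32136319, plus strand, from -202 to -153: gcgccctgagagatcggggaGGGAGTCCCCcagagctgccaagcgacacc

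On both strands, TGACNTCA stood in the windows of Jun and Maff (3 of 11 windows) and in 8.83% of all 32851 windows, and TGACG in those of Fos, Fosb, Junb, Atf3, Batf and Maff (7 of 11), against 20.8% of all windows. A TGACGTCA match also counts as a TGACG match. The kB site stood in the windows of Fos, Fosb, Fosl2 and Maff, against 4.51% of all windows. TATAAA stood in those of Fos and Junb (13.6%) and TTCNNNGAA, a STAT element, in that of Maff (8.3%). The AP-1 element TGANTCA (7.81%), the STAT6 form of that STAT element, with 1 more N between its arms (6.95%), and the CArG box bound by serum response factor (1.63%) had no match in the 11 windows. A match is a description of letters, not of binding, and no match covers this window only.

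The genes differ in build. Jun, at chr4:95049036-95052222, Junb, at chr8:84976909-84978748, and Jund, at chr8:70697739-70700616, are single-exon genes. In Batf, at chr12:85686720-85709087, 96% of the span is not exon, in Atf3, at chr1:191170296-191183333, 84.8%, in Maff, at chr15:79346621-79359076, 79.2%, and in Fosl2, at chr5:32136472-32157840, 72.6%. Fos lies at chr12:85473890-85477274, on the same chromosome as Batf and the same strand, and Fosb at chr7:19302696-19310045. Fosl1, at chr19:5447698-5455938, is the only one of the 10 whose span overlaps another gene, by 2776 bases with Ccdc85b on the opposite strand. Whether the counting used strand is not given in the sources used here, so reads of these 2 genes cannot be told apart.

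**Figure D1:**
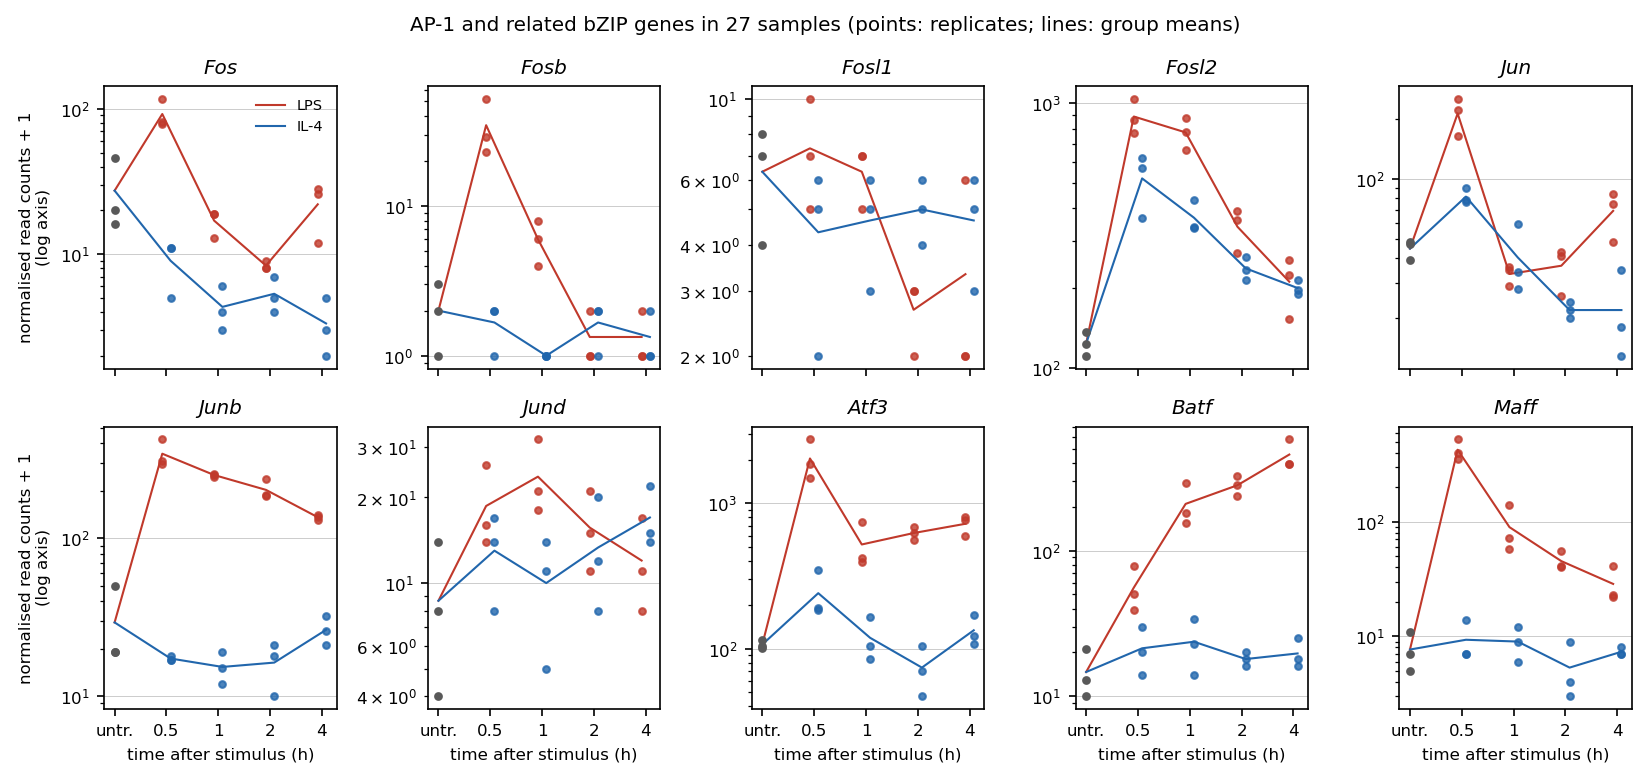
Normalised read counts plus 1 (log axis, scaled per gene) of the 10 genes in untreated cells and 0.5, 1, 2 and 4 h after LPS (red) or IL-4 (blue). Points are samples and lines join group means of 3. Most genes were highest 0.5 h after LPS and fell back, Batf was highest at 4 h, and Fos lay below its untreated samples throughout the IL-4 course.

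The level of each gene in untreated cells was set per kb of gene span. Whether introns were counted is not given, so an order of genes holds only for the length used. Junb stood at 15.4 ± 9.73 normalised read counts per kb (SD, n = 3) and Jun at 13.7 ± 1.55, followed by Atf3 at 8.10 ± 0.511, Fos at 7.78 ± 4.81, Fosl2 at 5.72 ± 0.585 and Jund at 2.66 ± 1.75. Fosl1 (0.647), Batf (0.611), Maff (0.535) and Fosb (0.136) were lowest. The samples of Junb and Jun overlapped, as did those of Atf3 and Fos, so these neighbours in the order were not separated by their spread. The order depended on the length used: per kb of exon, Atf3 came first at 53.4 ± 3.37 and Fosl2 second at 20.9 ± 2.13.

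Summed per kb of span, the 10 genes stood at 55.3 ± 16.6 in untreated cells, with samples from 43.6 to 74.3. At 0.5 h after LPS the sum was 525 ± 76.1 (437 to 569), at 1 h 253 ± 27.8, at 2 h 208 ± 20.4 and at 4 h 193 ± 14.0. At 0.5 h after IL-4 the sum was 85.3 ± 5.81 (80.8 to 91.9), and at 2 h it was 38.8 ± 7.94. The later LPS course depended on the length used. Per kb of exon, the sums at LPS 0.5, 1, 2 and 4 h were 1718 ± 373, 825 ± 203, 830 ± 62.6 and 1024 ± 49.8, beside 140 ± 21.1 in untreated cells. Of the sum per kb of span, Junb made up 35.7% ± 6.45 at LPS 0.5 h and 54.3% ± 5.06 at 1 h, and Atf3 29.5% ± 6.68 and 15.5% ± 4.01. Batf made up 0.469% ± 0.156 of the sum at LPS 0.5 h and 10.7% ± 3.39 at 4 h. At IL-4 0.5 h Jun (29.5% ± 0.773) and Fosl2 (28.8% ± 8.80) held the largest shares, and Junb held 10.4% ± 0.859. The shares depended on the length used. Per kb of exon, Atf3 held 59.1% ± 6.07 and Junb 11.2% ± 3.15 at LPS 0.5 h, Atf3 31.3% ± 4.23, Batf 27.4% ± 2.78 and Junb 17.1% ± 3.59 at 1 h, and Batf 48.8% ± 8.92, Atf3 35.9% ± 6.91 and Junb 7.18% ± 0.573 at 4 h, beside 3.51% ± 0.876 for Batf at 0.5 h. At IL-4 0.5 h Atf3 held 42.5% ± 10.1, Fosl2 32.7% ± 11.7 and Jun 9.06% ± 0.415 per kb of exon. On both lengths the share of Batf was larger at LPS 4 h than at 0.5 h and that of Junb was larger at LPS 1 h than at 0.5 h. These shares are descriptions without a test.

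**Figure D2:**
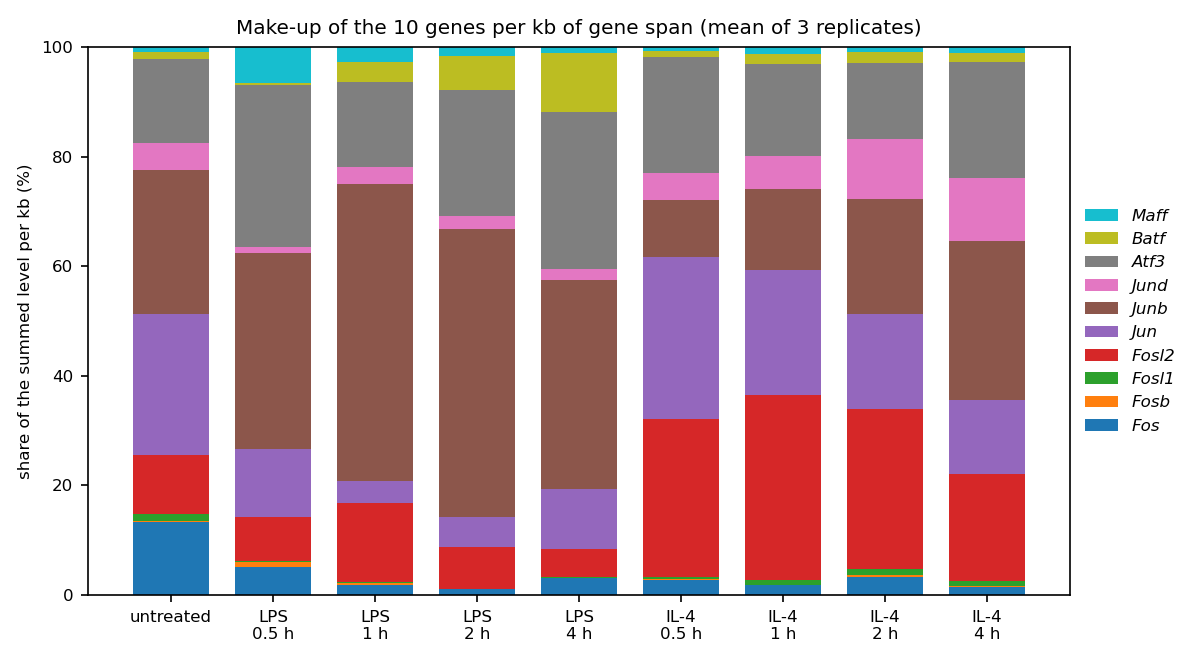
Share of each gene in the summed level per kb of gene span (%), as the mean of 3 samples, in the 9 groups. On this length Junb and Atf3 filled most of the LPS bars, Batf held 10.7% at LPS 4 h, and Jun (29.5%) and Fosl2 (28.8%) were widest at IL-4 0.5 h; per kb of exon Batf was widest at LPS 4 h (48.8%) and Atf3 at IL-4 0.5 h (42.5%).

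In the F test over the 4 LPS times, 9 of 9 genes passed, near the background of 87.6% of all genes tested. By the largest difference of the course all 9 were higher, against 32.9% of all genes tested, and 0 lower in limma (54.7%; unadjusted p under 0.05 in all 9). Fosb, whose largest difference was the one at 0.5 h that the filter fixed, is counted here without being a result. At 0.5 h, 9 of 9, counting Fosb, whose place the filter fixed, were higher than in untreated cells (19.6% of all genes tested) and 0 were lower in limma (34.4%), all 9 also having an unadjusted p under 0.05. At 1 h, 7 were higher (24.8%) and 0 lower (39%; the 7 were also those with an unadjusted p under 0.05). At 2 h, 5 were higher (26.9%) and 1, Fos, was lower (39%), and at 4 h, 6 were higher (25.9%) and 0 lower (37.6%; unadjusted p under 0.05 in 6). The median log2 difference of the 9 was 2.85, 2.23, 1.46 and 0.75 in order of time, beside -0.24 to -0.30 over all genes tested; with Fosb left out where it lay at or under a value of 3, the medians at 2 and 4 h were 2.00 and 1.33. Log2 differences are of value plus 1, which understates low genes, and adjusted p-values are limma's, over all 13901 genes.

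Scaling matters for the LPS samples, whose sums were larger. When all samples were rescaled to equal totals, the median over all genes moved to between -0.73 and -0.91, and 1621 of the 8879 genes called at 0.5 h were higher. The members' counts of calls, both directions together, became 8, 9, 7 and 4 in order of time. The calls gained were of lower values, Fos and Jun at 1 h and Jun at 2 h. Of all 13901 genes, 8879, 9907, 10345 and 10236 were called in that setting, of which 1621, 2157, 2369 and 2426 were higher. Each gene whose call or direction turned on the rescaling is named below.

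**Figure D3:**
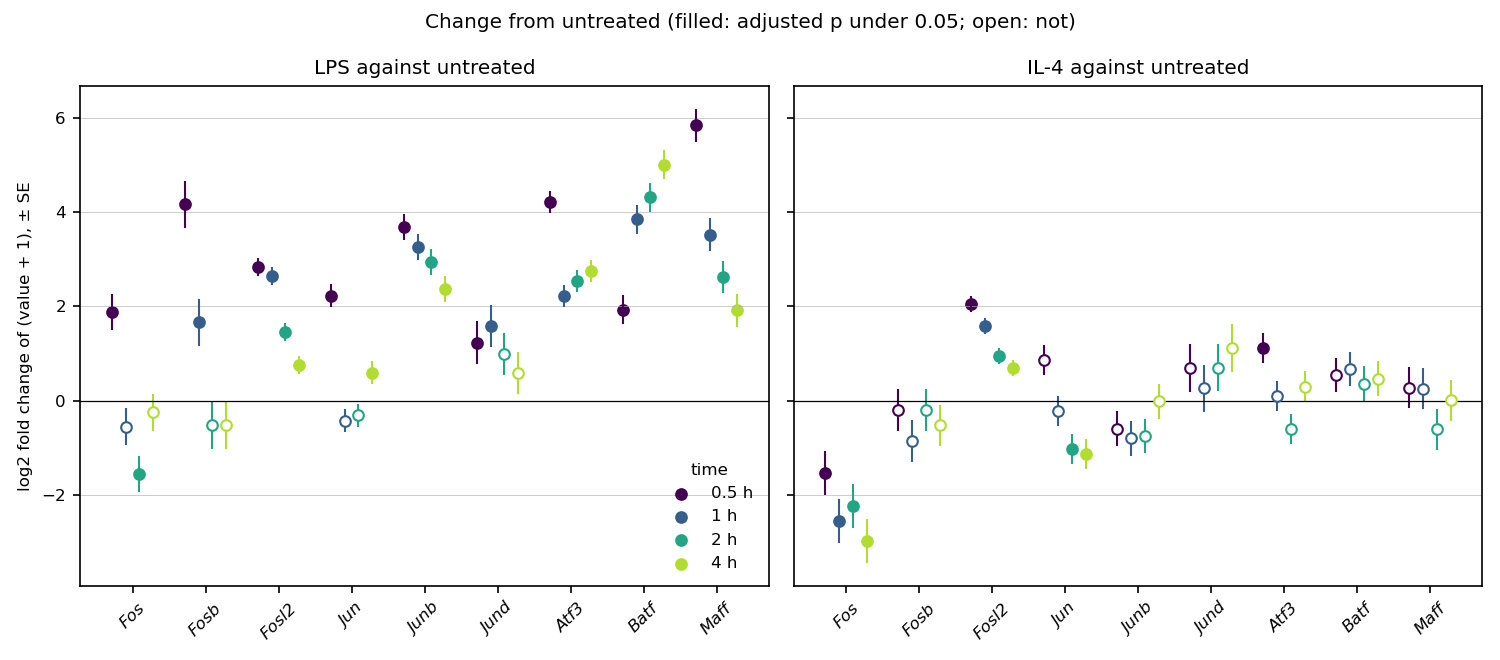
Log2 difference from untreated (value plus 1; bars, SE of the fit) for the 9 genes tested, with LPS on the left and IL-4 on the right and 1 colour per time. Filled points have an adjusted p under 0.05. All 9 points at LPS 0.5 h lie above 0, Batf climbs from 1.93 to 5.00, and Fosl2 lies above 0 at every time in both panels. The place of Fosb at LPS 0.5 h was fixed by the filter.

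Among the Fos proteins' genes, Fos encodes the classical short-lived Jun partner. In untreated cells it stood at 15, 19 and 45, at 0.5 h of LPS at 77, 80 and 116, and at 1 h at 18, 18 and 12. At 2 h it stood at 8, 7 and 7 and at 4 h at 11, 25 and 27. The 0.5 h samples lay above all others, those at 2 h lay below every untreated sample, and untreated replicate 3 stood apart from the other untreated samples. Relative to untreated cells, its log2 difference was 1.88 ± 0.39 (SE) at 0.5 h (adjusted p = 0.000772), -0.55 at 1 h (adjusted p = 0.227), -1.56 at 2 h (adjusted p = 0.0024) and -0.25 at 4 h (adjusted p = 0.592). At 1 h it passed as lower at -0.95 without replicate 1 (adjusted p = 0.0337) and at -1.10 with equal totals (adjusted p = 0.0177). The climb from 2 h to 4 h, 1.31 ± 0.39, had an adjusted p of 0.023 but did not pass without replicate 2 (1.11, adjusted p = 0.281) or replicate 3 (1.06, adjusted p = 0.15).

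Fosb, which encodes a further Jun partner, was at 0, 1 and 2 in untreated cells and at 28, 22 and 51 at 0.5 h of LPS. At 1 h it was at 5, 3 and 7, and at 2 and 4 h no sample exceeded 1. The samples at 0.5 h stood clear of all others. The fitted log2 difference at 1 h, 1.67 ± 0.50 (adjusted p = 0.0085), depends on the pseudocount because untreated cells lay at or under 3, and it did not pass without replicate 1 (1.21, adjusted p = 0.0817). Fosl1, encoding FRA-1, lay between 1 and 9 in all 27 samples, with 3, 7 and 6 in untreated cells and 9, 6 and 4 at LPS 0.5 h, and these groups overlapped. Fitted without the filter, its log2 difference was -1.21 ± 0.45 at LPS 2 h (adjusted p = 0.0647), and none of its contrasts passed, while the F test over the LPS times had an adjusted p of 0.0498 in that fit.

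Fosl2 encodes FRA-2, the fourth Fos protein. At LPS 0.5 h its level lay above that of Fos per kb of span (41.6 against 26.9) and per kb of exon (152 against 43.1), while in untreated cells the order turned with the length used (5.72 against 7.78 per kb of span, with overlapping samples, and 20.9 against 12.5 per kb of exon). Untreated cells held 110, 122 and 135, and the samples at LPS 0.5 h held 771, 859 and 1037, those at 1 h 779, 665 and 878. At 2 h the values were 389, 271 and 360, and at 4 h 152, 255 and 224. Every LPS sample lay above every untreated sample, and the level at 1 h was still 87.1% of that at 0.5 h, where Fos had 17.6% left and Fosb 14.9%. The log2 differences were 2.85 ± 0.19, 2.65 ± 0.19, 1.46 ± 0.19 and 0.75 ± 0.19 (adjusted p = 9.38e-09, 1.3e-08, 7.35e-06 and 0.00309). The last of these did not pass without replicate 2 (0.59, adjusted p = 0.0573) or with equal totals (0.14, adjusted p = 0.513).

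In the Jun family, Jun encodes the founding partner of Fos. It stood at 46, 38 and 47 in untreated cells, at 250, 163 and 220 at LPS 0.5 h and at 35, 28 and 34 at 1 h. At 2 h it held 25, 40 and 42 and at 4 h 47, 83 and 74. The 0.5 h samples lay far above all others, and those at 1 h lay below every untreated sample. Its log2 difference from untreated cells was 2.23 ± 0.25 at 0.5 h (adjusted p = 2.42e-06), -0.42 at 1 h (adjusted p = 0.147) and -0.31 at 2 h (adjusted p = 0.276). With equal totals the values at 1 h and 2 h passed as lower, at -0.99 and -0.96 (adjusted p = 0.00214 and 0.00263). At 4 h the difference of 0.59 ± 0.25 (adjusted p = 0.0472) was just inside the threshold and did not pass without replicate 2 (0.34), replicate 3 (0.57) or untreated replicate 3 (0.65), and with equal totals it turned to -0.0045 (adjusted p = 0.989).

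Junb, which encodes a Jun protein with weaker transactivation, stayed up for the whole course. It held 18, 18 and 49 in untreated cells, 296, 309 and 422 at LPS 0.5 h and 255, 252 and 245 at 1 h. At 2 h the values were 184, 186 and 235 and at 4 h 130, 139 and 136. No LPS sample overlapped the untreated samples. The log2 difference went from 3.69 ± 0.28 at 0.5 h to 3.26, 2.94 and 2.37 ± 0.28 at 4 h (adjusted p = 3.82e-08 and 2.26e-06 at the ends), and the level at 4 h was 39.4% of that at 0.5 h. Jund, usually the most constant of the Jun genes, was low and had the smallest log2 difference of the 9 at 0.5 h, with 13, 3 and 7 in untreated cells, 25, 15 and 13 at 0.5 h and 31, 20 and 17 at 1 h. Its log2 difference was 1.23 ± 0.45 at 0.5 h (adjusted p = 0.0293), where the groups touched at 13, and 1.58 ± 0.45 at 1 h (adjusted p = 0.00595). The first did not pass without replicate 2 (0.85, adjusted p = 0.274), replicate 3 (1.45, adjusted p = 0.0819) or untreated replicate 3 (1.27, adjusted p = 0.0575), nor with equal totals (0.77, adjusted p = 0.141), and the second did not pass without replicate 2 (1.18, adjusted p = 0.11). At 2 h it stood at 20, 14 and 10, a log2 difference of 0.98 ± 0.45 (adjusted p = 0.0641) that passed without replicate 1 (1.18, adjusted p = 0.0166), with the replicate block (adjusted p = 0.00828) and with median-of-ratios scaling (1.20, adjusted p = 0.0361).

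Atf3 encodes a stress-induced bZIP repressor. Untreated cells held 104, 100 and 113, and the values 0.5 h after LPS were 2751, 1490 and 1859. They were 745, 420 and 394 after 1 h, 560, 625 and 684 after 2 h and 597, 767 and 801 after 4 h. Every LPS sample exceeded every untreated sample, and replicate 1 was the highest at 0.5 and 1 h. In order of time the log2 difference was 4.21 ± 0.23, 2.23, 2.55 and 2.75, all with the same SE (adjusted p = 1.07e-09, 7.84e-07, 1.23e-07 and 5.02e-08). It fell by 1.98 ± 0.23 from 0.5 to 1 h (adjusted p = 5.28e-06) and then held, the next step of 0.32 having an adjusted p of 0.299, although that step passed without replicate 1 (0.68, adjusted p = 0.000173).

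Batf encodes a small bZIP partner of Jun proteins that binds composite elements with IRF4 or IRF8. It held 20, 12 and 9 in untreated cells, 77, 49 and 38 at LPS 0.5 h and 291, 154 and 179 at 1 h. At 2 h it held 326, 234 and 279 and at 4 h 578, 393 and 393. The LPS samples lay above the untreated samples at all 4 times, and the group means climbed from each time to the next. Log2 differences were 1.93 ± 0.31, 3.85, 4.31 and 5.00 ± 0.31 (adjusted p = 8.53e-05, 4.03e-08, 6.84e-09 and 1.17e-09), and the value at 1 h was 380% of that at 0.5 h.

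Maff encodes a small Maf protein, which dimerises with CNC-type bZIP factors and has no activation domain. It showed the largest difference of the 9, from 6, 4 and 10 in untreated cells to 522, 355 and 394 at LPS 0.5 h. It then stood at 138, 57 and 71 after 1 h, 54, 40 and 39 after 2 h and 40, 21 and 22 after 4 h. The LPS samples stayed above every untreated sample, and 6.53% of the 0.5 h level was left at 4 h. Its log2 differences were 5.85 ± 0.35, 3.52, 2.62 and 1.92, each with that SE (adjusted p = 2.39e-09, 4.31e-07, 8.06e-06 and 0.000187).

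The steps between successive LPS times were tested in the same fit. From 0.5 to 1 h, 6 of 9 genes passed (49.7% of all genes tested), with Fos, Jun, Atf3 and Maff lower by 1.98 to 2.65 and Batf higher by 1.91 ± 0.31 (adjusted p = 0.000106). The sixth was Fosb, whose lower value after 0.5 h was fixed by the filter and which is counted in this and the later steps without being a result. From 1 to 2 h, 4 passed (43.3%), Fos, Fosb, Fosl2 and Maff, all lower, and from 2 to 4 h, 3 passed (22.9%), with Fos (1.31) and Jun (0.91 ± 0.25, adjusted p = 0.0147) higher and Fosl2 lower (-0.71 ± 0.19, adjusted p = 0.0144). Of these, the 1 to 2 h step of Maff (-0.90, adjusted p = 0.0496) did not pass without any 1 of the 3 replicates (-0.67, -1.09 and -0.92), and that of Fos (-1.01, adjusted p = 0.0466) did not without replicate 2 (-0.89) or 3 (-1.16). From 2 to 4 h, Jun did not pass without replicate 2 (0.84) or 3 (0.96), nor Fosl2 without replicate 1 (-0.38) or 3 (-0.72). With the replicate block, Batf also passed from 1 to 2 h (0.47, adjusted p = 0.0212) and from 2 to 4 h (0.69, adjusted p = 0.00299), and Maff from 2 to 4 h (-0.71, adjusted p = 0.0385). Between 0.5 and 4 h, 8 of 9 passed (63%), Jund being the exception (-0.65 ± 0.45, adjusted p = 0.215).

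IL-4 is a cytokine that acts mainly through STAT6. The IL-4 comparisons use the same 3 untreated samples as those of LPS, and likewise have no vehicle group of the same time. In the F test 4 of 9 passed (Fos, Fosl2, Jun and Atf3), against 40.3% of all genes tested, so the share was near the background. By the largest difference, 2 were higher (19.4% of all genes tested) and 2 lower (20.9%). At 0.5 h, 2 were higher, Fosl2 and Atf3 (8.15% of all genes tested), and 1 was lower, Fos (8.14%). At 1 h, 1 was higher, Fosl2 (11.1%), and 1 lower, Fos (9.83%). Fosl2 was again the 1 higher gene at 2 h (14.3%), with Fos and Jun the 2 lower genes (13.2%), and the same held at 4 h, with 1 higher (13.4%) and 2 lower (12.5%). The median log2 difference of the 9 lay between -0.60 and 0.54, beside -0.02 to 0.02 over all genes tested.

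Fosl2 was higher than in untreated cells at every time after IL-4. From 110, 122 and 135 in untreated cells it went to 367, 570 and 618 after 0.5 h and 339, 430 and 335 after 1 h. After 2 h it held 233, 214 and 262 and after 4 h 213, 195 and 189. All 12 IL-4 samples lay above the 3 untreated ones. The successive log2 differences were 2.04 ± 0.17, 1.58 ± 0.17, 0.94 ± 0.17 and 0.70 ± 0.17 (adjusted p = 1.88e-06, 1.15e-05, 0.000815 and 0.00732), and the value at 4 h did not pass without replicate 2 (0.71, adjusted p = 0.0908).

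Fos was lower than in untreated cells at every time after IL-4, a difference that includes the time since DMSO. Beside 15, 19 and 45 in untreated cells it held 10, 4 and 10 after 0.5 h and 5, 2 and 3 after 1 h. After 2 h it held 6, 4 and 3 and after 4 h 1, 4 and 2. No IL-4 sample reached the lowest untreated value. In order of time, the log2 difference was -1.53 ± 0.47, -2.56 ± 0.47, -2.24 ± 0.47 and -2.98 ± 0.47 (adjusted p = 0.0404, 0.00132, 0.00279 and 0.000348). Untreated replicate 3 weighed on the first of these: without it the difference at 0.5 h was -1.08 (adjusted p = 0.173), and it did not pass without replicate 2 (-1.30, adjusted p = 0.261) or replicate 3 (-1.27, adjusted p = 0.307). Without replicate 3, the differences at 1 h (-2.08, adjusted p = 0.0726) and 2 h (-1.60, adjusted p = 0.129) did not pass either, while that at 4 h passed without each replicate in turn.

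Jun went from 46, 38 and 47 in untreated cells to 89, 75 and 77 at IL-4 0.5 h, then to 58, 33 and 27 after 1 h, 21, 19 and 23 after 2 h and 34, 17 and 12 after 4 h. The 0.5 h samples lay above the untreated ones without overlap, and those at 2 and 4 h lay below them. Jun had a log2 difference of 0.87 ± 0.32 at 0.5 h (adjusted p = 0.0882), -0.22 at 1 h (adjusted p = 0.713), -1.02 ± 0.32 at 2 h (adjusted p = 0.0293) and -1.14 ± 0.32 at 4 h (adjusted p = 0.0174). At 0.5 h it passed without replicate 1 (0.83, adjusted p = 0.0252) and with the replicate block, in which the sample number enters the fit (adjusted p = 0.0221). The calls at 2 and 4 h did not pass without replicate 2 (-1.05 and -1.15), replicate 3 (-1.03 and -0.77) or untreated replicate 3 (-0.96 and -1.09).

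Atf3 held 347, 189 and 183 at IL-4 0.5 h beside 104, 100 and 113 in untreated cells, with no overlap. It then held 165, 104 and 84 after 1 h, 104, 46 and 69 after 2 h and 170, 107 and 121 after 4 h, all overlapping the untreated samples. The log2 difference was 1.11 ± 0.32 at 0.5 h (adjusted p = 0.0293), and it did not pass without replicate 2 (1.21, adjusted p = 0.157), replicate 3 (1.32, adjusted p = 0.152) or untreated replicate 3 (1.16, adjusted p = 0.0619). At 2 h it was -0.60 (adjusted p = 0.191), and it passed without replicate 1 (-0.90, adjusted p = 0.00371) and with the replicate block (adjusted p = 0.0212).

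The other 5 genes tested had no call against untreated cells at any IL-4 time. Junb held between 9 and 31 over the 12 IL-4 samples, Batf between 13 and 33, Maff between 2 and 13 and Fosb 0 or 1. Jund held 14, 13 and 21 at 4 h, all at or above the highest untreated value of 13, and its log2 difference of 1.12 ± 0.51 (adjusted p = 0.128) passed without replicate 1 (1.63, adjusted p = 0.032) and with the replicate block (adjusted p = 0.0426). Fosl1, not tested, held between 1 and 5. In the steps between successive IL-4 times, 0 of 9 passed from 0.5 to 1 h in limma (7.82% of all genes tested; unadjusted p under 0.05 in 4), 1 from 1 to 2 h, Fosl2 (9.4%), and 0 from 2 to 4 h (5.48%; unadjusted p under 0.05 in 1). The Fosl2 step of -0.63 ± 0.17 (adjusted p = 0.0325) did not pass without replicate 2 (-0.45) or 3 (-0.77). With the replicate block Atf3 (-1.01, adjusted p = 0.00244), Jun (-1.08, adjusted p = 0.0103) and Fosl2 (-0.47, adjusted p = 0.0497) passed from 0.5 to 1 h, Atf3 (-0.70, adjusted p = 0.0192) and Jun (-0.80, adjusted p = 0.0426) also from 1 to 2 h, and Atf3 (0.90, adjusted p = 0.00584) from 2 to 4 h. Between 0.5 and 4 h, 3 of 9 passed (27.3%), Fos, Fosl2 and Jun, all lower at 4 h.

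The stimuli were then compared directly at each time. At 0.5 h, 8 of 9 genes were higher after LPS (18% of all genes tested) and 0 lower (35.8%; unadjusted p under 0.05 in the same number, 8), with Jund at 0.54 ± 0.46 (adjusted p = 0.348). These 8 count Fosb, whose call at 0.5 h the filter fixed. At 1 h, 8 were higher (24%) and 0 lower (40.5%; unadjusted 8), with Jun at -0.21 ± 0.30 (adjusted p = 0.566). Fosb is counted there too, with 5, 3 and 7 after LPS and 0 in each sample after IL-4, and is not read as a result. At 2 h, 6 were higher (26.4%) and 0 lower (42.3%; unadjusted 6), namely Fosl2, Jun, Junb, Atf3, Batf and Maff, and at 4 h 6 were higher (26.1%) and 0 lower (41.9%; unadjusted 6), namely Fos, Jun, Junb, Atf3, Batf and Maff. With Fosb set aside for its filter, the largest differences were those of Maff at 0.5 h (5.57 ± 0.40, adjusted p = 4.39e-11), Batf at 4 h (4.54 ± 0.34, adjusted p = 2.43e-11) and Junb at 0.5 h (4.29 ± 0.29, adjusted p = 1.53e-11).

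Fosl2 was called higher than in untreated cells after both stimuli at all 4 times. Between the stimuli it differed, in order of time, by 0.80 ± 0.19, 1.07 ± 0.19, 0.51 ± 0.19 and 0.05 ± 0.19 (adjusted p = 0.0011, 3.51e-05, 0.0219 and 0.836). The value at 2 h did not pass without replicate 3 (0.54, adjusted p = 0.0876). With equal totals the difference at 0.5 h was 0.42 (adjusted p = 0.0619), that at 2 h turned to -0.12 (adjusted p = 0.579) and that at 4 h to -0.57 (adjusted p = 0.00932), so the direction of the late difference depended on the scaling. Fos was separated more widely, by 3.42 ± 0.42 at 0.5 h (adjusted p = 3.43e-07) and 2.73 ± 0.42 at 4 h (adjusted p = 4.71e-06), with all LPS samples above all IL-4 samples at both times. Jun at 2 h (0.71 ± 0.30, adjusted p = 0.0421) did not pass without replicate 2 (0.54) or replicate 3 (0.64) and was 0.10 with equal totals (adjusted p = 0.78), and Jund at 1 h (1.32 ± 0.46, adjusted p = 0.0152) did not pass without replicate 2 (0.95) or with equal totals (0.88, adjusted p = 0.0939). At 4 h Jund was lower after LPS with equal totals (-1.12, adjusted p = 0.0323), beside -0.54 as reported (adjusted p = 0.305).

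**Figure D4:**
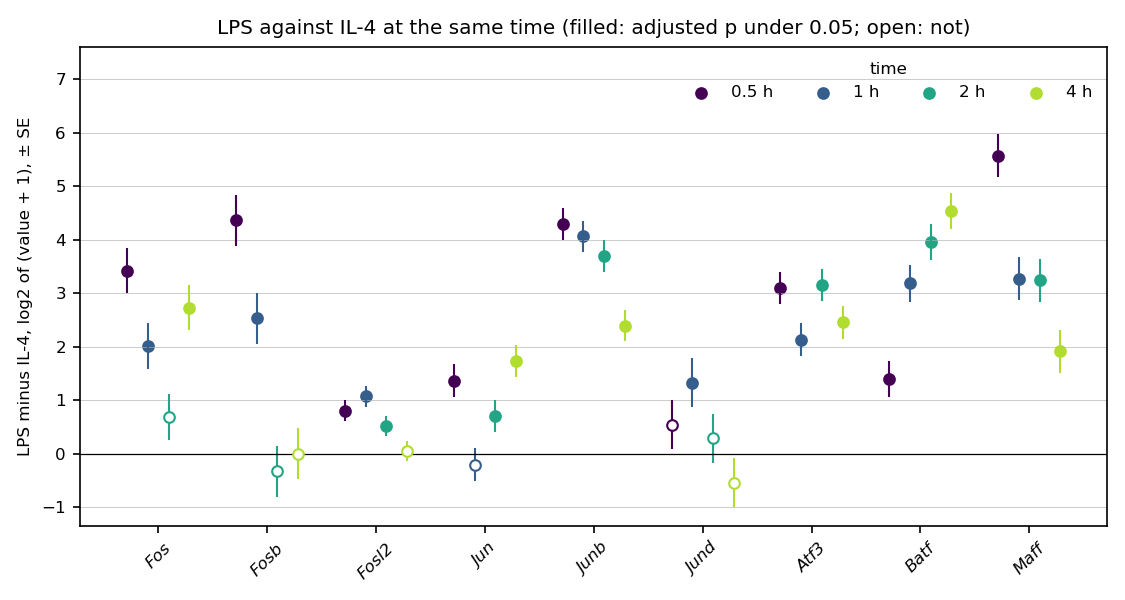
Log2 difference between LPS and IL-4 samples of the same time (value plus 1; bars, SE of the fit) for the 9 genes tested. Filled points have an adjusted p under 0.05. Junb, Atf3, Batf and Maff lie well above 0 at all 4 times, and Fosl2 goes from 0.80 at 0.5 h to 0.05 at 4 h.

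Genes whose course was most like that of each member were listed by Pearson r over the 9 group means, among 8665 candidates. The 9 points share untreated samples and scaling and carry no p, and each r is the highest among the candidates. The r of Fosb rests on LPS 0.5 and 1 h (means 33.7 and 5.0), since its mean was at most 1.0 in every other group. Nearest to Fos was Megf11 (r = 0.963), to Fosb Arih2 (r = 0.982), to Fosl2 Cd44 (r = 0.954), to Jun Sdcbp (r = 0.960) and to Junb Tnfsf9 (r = 0.995). Jund had Zbtb46 (r = 0.906), the lowest of these, Atf3 had Tdg (r = 0.988), Batf Poldip3 (r = 0.993) and Maff LOC115488029 (r = 0.993). Among the members themselves, Atf3 and Maff (r = 0.936), Junb and Maff (r = 0.924) and Junb and Atf3 (r = 0.916) were most alike.

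The course of Cd44, the hyaluronan receptor, resembled that of Fosl2 in rising after both stimuli, with group means of 1328 in untreated cells, 10863 and 24617 at LPS 0.5 and 1 h and 7734 at IL-4 0.5 h. That of Mapkapk2, which encodes a kinase activated by p38 and was among the 3 genes nearest to Junb (r = 0.993), went from 654 in untreated cells to 22020 at LPS 0.5 h and 6724 at 4 h, and stayed between 329 and 531 after IL-4.

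The other bZIP factors, 29 of them tested, moved both ways. After LPS 15 rose by their largest difference (32.9% of all genes tested), 10 fell (54.7%) and 4 did not pass the F test. Their median largest log2 difference was 0.36 beside -1.002 over all genes tested. After IL-4 12 rose (19.4%), 6 fell (20.9%) and 11 did not pass, with a median of 0.18 beside -0.16. With genes near 0 bounded or left out, the IL-4 median of these factors was 0.0. Jdp2, whose protein pairs with Jun and represses AP-1 sites, went from 65.3 ± 14.0 (SD, n = 3) to 8407 ± 2167 at LPS 1 h, a log2 difference of 6.98 ± 0.39 (adjusted p = 6.65e-10), which exceeded that of any of the 9 members. Batf2, a relative of Batf, went from 5.0 ± 2.0 to 414 ± 73.1 at LPS 4 h (6.15 ± 0.36), and Creb3l1 from 2.33 to 83.0 at 2 h. Tef (-3.67), Bach2 (-3.11) and Maf (-1.91) fell most after LPS. The rises of IL-4 samples were led by Batf3, the third Batf gene (4.17 ± 0.32 at 4 h, from 4.67 to 104) and Nfil3 (3.39 at 0.5 h), and the falls by Nfe2l2 (-1.59), Bach2 (-1.48) and Crebl2 (-1.03).

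Genes listed as acting upstream of AP-1 or as its partners were mixed as well. By the largest difference, 32.9% of all genes tested were higher and 54.7% lower after LPS. After IL-4 the shares were 19.4% and 20.9%. The counts below stand against the shares of the same stimulus. Of 6 genes for serum response factor and its partners, which act at the Fos promoter, 1 rose (Elk4, 0.69 ± 0.17 at 1 h) and 5 fell after LPS, among them Elk3 (-2.90 at 4 h), and after IL-4 4 rose, with Srf at 1.14 ± 0.22 at 0.5 h and Mrtfb at 1.08 ± 0.10 at 1 h, and 1, Elk3, fell (-1.28). Time by time, 3 of these 6 were higher and 0 lower after LPS at both 0.5 h (19.6% and 34.4% of all genes tested) and 1 h (24.8% and 39%). At 2 h 0 were higher (26.9%) and 5 lower (39%). Of 17 genes for kinases that act on Fos and Jun proteins, directly or through other kinases, 8 rose and 9 fell after LPS. Mapkapk2 rose by 5.00 ± 0.27 at LPS 0.5 h, and Mapk14, encoding p38 alpha, fell by 2.66 ± 0.10 at 4 h. After IL-4 2 of the 17 rose and 6 fell. At LPS 0.5 h 2 of the 17 were higher (19.6% of all genes tested) and 7 lower (34.4%), both near the share of all genes. At 1 h 11 were higher (24.8%) and 5 lower (39%). Map2k6 went from 165 ± 18.7 in untreated cells to 1.0 in each sample at LPS 4 h. Of 5 IRF and partner genes, 1 rose after LPS (Spi1) and 4 fell, among them Irf8 (-2.56 ± 0.28 at 0.5 h). After IL-4 1 rose (Irf4, encoding a partner of BATF, 4.64 ± 0.26 at 4 h, adjusted p = 3.71e-08). The 3 that fell after IL-4 included Nfatc2, which fell most (-2.63), and Irf8 (-1.21 ± 0.31 at 0.5 h).

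Of 11 genes known from textbooks as AP-1 targets, 7 rose (32.9% of all genes tested), 3 fell (54.7%) and 1 did not pass after LPS, with a median of 2.35 beside -1.002 over all genes tested (2.26 with genes near 0 bounded or left out). Mmp13, a collagenase gene, went from 6.33 ± 3.21 to 2607 ± 399 at LPS 2 h (8.55 ± 0.33), Plaur, the urokinase receptor gene, rose by 4.92 ± 0.18 at 0.5 h and Cd44 by 4.22 ± 0.21 at 1 h, whereas Hmox1 (-2.04) and Vegfa (-1.80) fell. After IL-4, 2 rose, Cd44 (2.52 ± 0.18) and Plau (1.35 ± 0.39, adjusted p = 0.0306), 3 fell, Hmox1 (-2.28) and Vegfa (-1.93) most, and 6 did not pass.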

How the data were processed

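Chromatin-associated RNA of 27 samples (9 groups of 3) was sequenced as 76-base single-end reads. The deposited values are read counts per gene that the authors normalised on invariant genes and rounded (a score in unit, not raw counts). Per the labels' processing notes and the study's methods, reads were aligned with TopHat2 2.1.1 to mm10, multi-mapping and blacklisted reads were removed (bedtools 2.29.2) and reads were counted on RefSeq genes. Whether introns or strand were used in counting is not given in the sources used here. Reads per library are not given by the values. Log2(value + 1) was fitted with limma 3.58.1 (R 4.3.3, trend), each course with its 3 untreated and 12 stimulated samples and LPS against IL-4 over all 27, with Benjamini-Hochberg adjustment over 13901 genes (at least 10 in at least 3 samples) and a threshold of 0.05. The impulse model of the study was not run. Scripts were tested on simulated data. All 10 members were named; from other lists, per course and list, the 3 largest rises and falls past the F test with a mean of at least 50 were eligible, and a few of these are named. Members and lists were chosen with earlier results of these data known. Same-numbered samples correlated over 0.1 in 106 of 108 pairs. Pairing required all pairs, so the fits reported have no block, but samples of 1 number do deviate together, and the block is given where it changes a call. Alternatives were another pseudocount, filters, scalings, fits, the replicate block and leaving samples out.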

Additional observations from a re-analysis of the deposited data

Results flagged for a closer look

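The change between 0.5 and 4 h of one stimulus was tested within each course, and 11 values passed (log2 difference, 4 h minus 0.5 h, limma adjusted p). After LPS 8 of 9 members passed, counting Fosb, beside 63% of all genes tested. After IL-4 3 of 9 passed, near the 27.3% of all genes tested. After LPS, Maff was lower at 4 h by -3.93 (9.36e-08), Fos by -2.13 (0.000186), Fosl2 by -2.10 (1.33e-07), Jun by -1.64 (3.17e-05), Atf3 by -1.46 (5.48e-05) and Junb by -1.32 (0.000732). Batf was the gene with the opposite sign, at 3.07 (3.77e-07). The fitted value of Fosb, -4.69, is no result, since Fosb passed the filter only through its samples at 0.5 h and lay at or under 3 at 4 h, where the value depends on the pseudocount. After IL-4, Jun was lower at 4 h by -2.01 (0.00041), Fos by -1.44 (0.0365) and Fosl2 by -1.34 (6.14e-05). The IL-4 value of Fos did not pass without replicate 1 (-0.94, adjusted p = 0.178) or replicate 3 (-1.23, adjusted p = 0.238), and Atf3 (-0.81 after IL-4, adjusted p = 0.0774) passed without replicate 1 (-0.70, adjusted p = 0.0136) and with the replicate block (adjusted p = 0.00366). No explanation was weighed.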

How the results depend on the processing

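Over 180 values of members by comparison and their alternatives, 1830 of 1956 kept their side of the threshold, 35 of them, without a call in either fit, with the opposite sign, 84 lost and 39 gained the call, and 3 with a call in at least 1 fit turned sign, all with equal totals: Fosl2 between stimuli at 2 h (-0.12) and 4 h (-0.57) and Jun at LPS 4 h (-0.0045). The 9 members past the LPS F test became 6 with a mean of at least 50, a filter that tests fewer members. IL-4 counts were less stable. The 4 members past the F test became 2 with replicates 2 and 3 averaged and 2 to 4 when 1 replicate was left out. The 3 calls at 0.5 h became 1 with no filter and 1 with replicates averaged (1 to 4 leaving 1 out; 1 without untreated replicate 3, an alternative chosen after seeing the data). The 2 calls at 1 h became 1 with a mean of at least 50 (1 to 3 leaving 1 out), the 3 at 2 h ranged from 1 to 4 leaving 1 out, and the 3 at 4 h became 1 with replicates averaged (1 to 4 leaving 1 out). Between stimuli, 8 calls at 1 h became 5 with a mean of at least 50. The 13 LPS steps became 8 with that filter (8 to 15 leaving 1 out). The 1 IL-4 step became 2 with a pseudocount of 8, 0 with no filter, 3 with a mean of at least 50, 0 with replicates averaged and 0 to 6 leaving 1 out. The median untreated level of the 10 genes was 4.06 per kb of span and 10.1 per kb of exon. Causes were not tested.

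With the replicate number as a block, 14 member values gained the call, 0 lost it, and the IL-4 steps became 7. Same-numbered samples correlated best with their own number in 160 of 216 cases, and 106 of 108 pairs correlated over 0.1 (0.09 to 0.71), a hint from the data and not the design. Low values limit Fosb, Fosl1, Jund and the IL-4 values of Fos, Maff and Batf.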
